A study of Arabidopsis thaliana with 18 samples.

Results

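UDP-glycosyltransferases (UGT) and glutathione transferases (GST) of Arabidopsis thaliana rosettes were followed across silence and 5 frequencies of airborne sound. Members were all probe sets that the platform's table assigns to a single gene with a symbol starting with UGT or GST, ignoring a leading AT. This gave 61 probe sets for 61 genes, 47 UGT and 14 GST, among 22746 probe sets tested. The rule reads gene symbols only. RefSeq carries such symbols for 58 UGT and 48 GST genes. Of the GST genes so named only a small part is represented: 11 of class tau (U), 2 of class phi (F) and 1 of class lambda (L). Genes of either family under another symbol, or none, enter neither count, so the coverage of the whole families is not known here. The UGT members comprise 14 of phylogenetic group E, 8 each of groups H and L, 7 of group D, 5 of group G, 3 of group F, 1 of group J and the sterol glucosyltransferase UGT80B1.

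Both families make small molecules more soluble and less reactive. UGTs pass a sugar from a UDP-sugar to hydroxyl, carboxyl, amino or thiol groups of hormones, phenylpropanoids, flavonoids, glucosinolate precursors and foreign compounds, and the conjugates are commonly stored in the vacuole. GSTs of the tau and phi classes join glutathione to electrophiles, and members of the lambda class act mainly as thiol-dependent reductases. Genes of both families are known in this species for quick responses to oxidative, chemical and pathogen stress, and many stand in tandem rows that arose by local duplication. Of the 61 genes, 39 lay in 16 such rows, with at most 5 other protein-coding genes between neighbours of the same family.

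All plants were Col-0, 20 days old, and grown in continuous light at 22C. Silent controls stood for 1 h in the noiseless chamber, and the sound groups received 250, 500, 1000, 2000 or 3000 Hz at 80 dB for 1 h, with tissue taken immediately. Each of the 6 groups has 3 arrays from biological replicates, 18 in all. How many plants went into a replicate is not given in the sources used here. Values are log2 signals of Affymetrix ATH1 arrays, on which a difference of 1 is 2-fold, and the number of arrays limits their precision. A call is an adjusted p under 0.05 from a single limma fit of all 6 groups and all 22746 probe sets, two-sided.

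Arrays of the silent group were the most spread. Over the 61 members the mean variance was 0.0303 to 0.0732 in the sound groups and 0.147 in silence, and the controls spanned at least 1 on the log2 scale for 9 members. Control replicate 2 lay inside the range of the 15 sound arrays for 58 of 61 members, control replicate 1 for 44 and control replicate 3 for 38. The fit shares a single variance over the groups, so errors against silence are too small for a gene whose controls are far apart. Poly-A spikes averaged 5.99 to 6.51 on the 6 arrays of 2000 and 3000 Hz, against 5.37 to 5.59 on the other 12, so that at these frequencies the spike difference and sound cannot be told apart against silence. The actin 3' minus 5' signal was 1.75 ± 0.086 at 2000 Hz and 1.61 ± 0.055 at 3000 Hz, against 1.94 ± 0.017 in silence (SD, n = 3 each). RCA, the leaf gene of Rubisco activase, had 14.09 to 14.32 on all arrays, and PYK10, a beta-glucosidase gene of roots, reached 8.67 on control replicate 1 and ranged from 4.14 to 7.94 elsewhere. The part of these differences in the results was not tested.

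Against silence, single UGT and GST genes passed the test, and the shares called are given beside those of all probe sets, with no test of the difference between them. At 500 Hz, 5 of 61 members passed, 1 higher and 4 lower, or 8.20%, beside 8.91% of all probe sets (4.14% higher, 4.77% lower). At 2000 Hz 2 passed, 1 each way, or 3.28% beside 2.89% (1.62% higher, 1.27% lower). At 3000 Hz 5 passed, 2 higher and 3 lower, or 8.20% beside 6.6% (2.84% higher, 3.76% lower). At 250 Hz and 1000 Hz limma called 0 members, beside 0.044% and 0% of all probe sets. An unadjusted p under 0.05 was reached by 10 members at 250 Hz (16.4%, beside 15.8% of all probe sets) and 15 at 1000 Hz (24.6%, beside 15.5%). For the average of the 5 frequencies 2 members passed, both lower, or 3.28% beside 3.69% (1.64% higher, 2.05% lower). The median member changed by -0.01 at 250 Hz, 0.04 at 500 Hz and 1000 Hz, 0.03 at 2000 Hz and 0.05 at 3000 Hz, and the medians over all probe sets lay between -0.02 and 0.01. All 5 comparisons share the same 3 control arrays. With the arrays of each pair of groups fitted alone, limma called 0 members at each frequency. Each member call below was lost in at least 2 of the fits that left out 1 array, and the arrays, or their number where many, are given with it. Groups of 3 arrays that do not overlap are not rare. For 3000 Hz against 2000 Hz 13.4% of all probe sets lay wholly above and 10.4% wholly below. For the other pairs of groups that share is not given, so non-overlap below only describes the arrays.

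**Figure D1:**
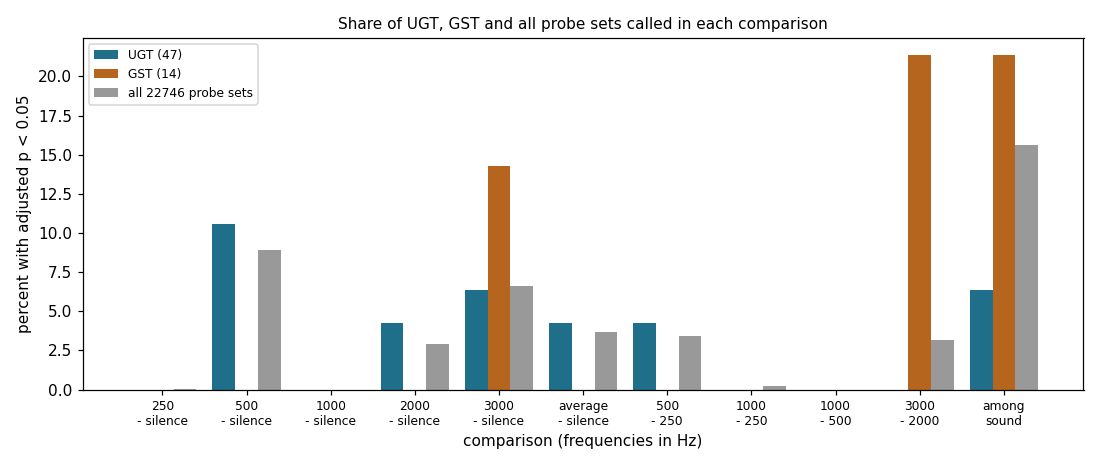
Percent of the 47 UGT probe sets, the 14 GST probe sets and all 22746 probe sets with an adjusted p under 0.05 in each comparison (bars start at 0). UGT bars lie near the bars of all probe sets against silence, and the GST bar reaches 21.4% for 3000 Hz against 2000 Hz, where all probe sets stand at 3.17%, and again 21.4% among the sound groups, beside 15.6%.

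**Figure D2:**
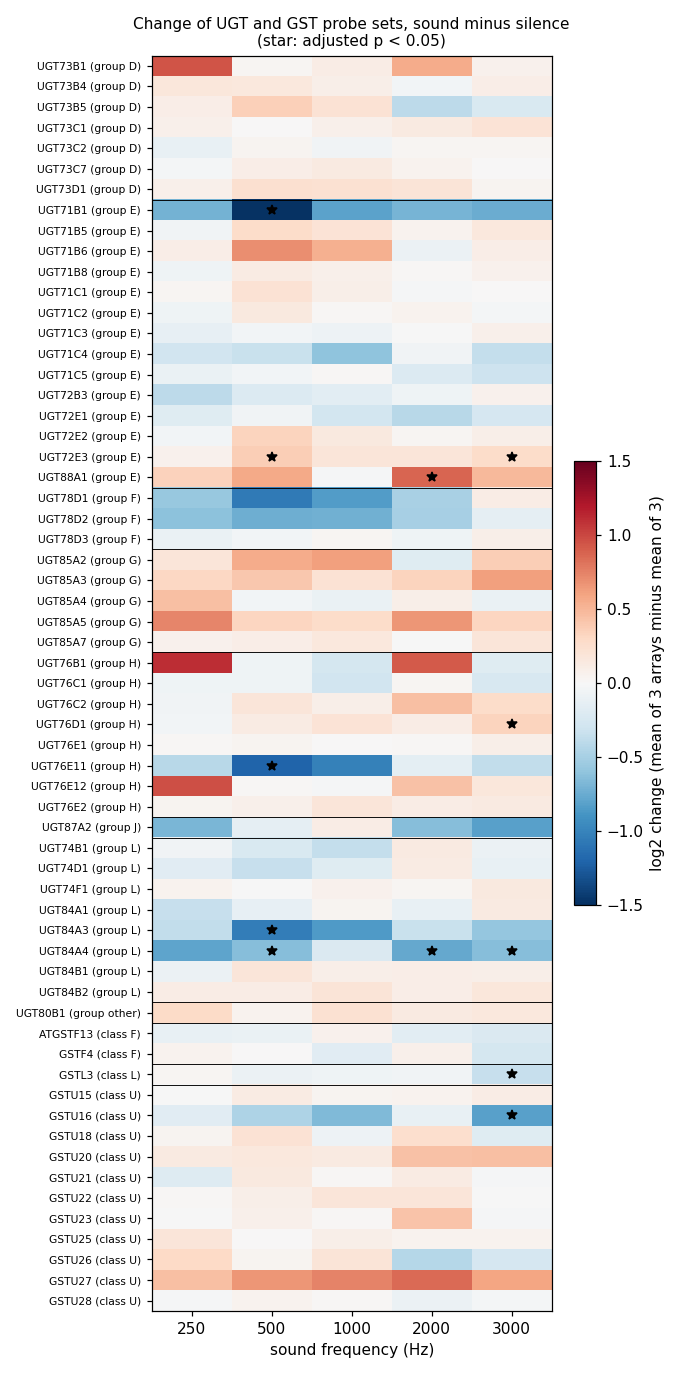
Log2 change of each of the 61 probe sets (rows, by UGT group or GST class) at each frequency (columns) relative to silence, red for higher and blue for lower, with a star at an adjusted p under 0.05. Most rows are pale, and the strongest blue cell is UGT71B1 at 500 Hz, lower by 1.49.

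Among enzymes that act on phenylpropanoids, UGT84A4 fell at 500, 2000 and 3000 Hz and UGT84A3 at 500 Hz, while UGT84A1 passed in no comparison. UGT84A1, UGT84A3 and UGT84A4 (AT4G15480, AT4G15490 and AT4G15500) form glucose esters of hydroxycinnamic acids such as sinapate and ferulate, and stand side by side. UGT84A4 had 6.02, 5.92 and 5.87 at 500 Hz, 5.70, 5.90 and 5.83 at 2000 Hz and 5.86, 5.93 and 6.04 at 3000 Hz, against 6.56, 6.10 and 7.08 in silence. All arrays of these 3 frequencies lay below all control arrays. It fell by 0.64 ± 0.17 (SE) at 500 Hz (1.56-fold lower, adjusted p = 0.0297), by 0.77 ± 0.17 at 2000 Hz (1.71-fold lower, adjusted p = 0.0267) and by 0.64 ± 0.17 at 3000 Hz (1.55-fold lower, adjusted p = 0.0364), and also for the average of the frequencies, by 0.61 ± 0.13 (adjusted p = 0.0279). At 250 Hz the arrays stood at 5.83, 5.76 and 5.79, also below every control array, but the difference of -0.79 ± 0.17 missed the threshold (adjusted p = 0.08). At 1000 Hz, values of 6.24, 6.50 and 6.36 lay among those of silence (difference -0.21 ± 0.17, adjusted p = 0.585). Whether a lower signal reflects fewer cells of a type or less RNA per cell cannot be told apart in whole rosettes, here or below.

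The UGT84A4 calls depend on control replicate 3. Without that array the change was -0.39 at 500 Hz (adjusted p = 0.0731), -0.52 at 2000 Hz (adjusted p = 0.0797), -0.39 at 3000 Hz (adjusted p = 0.143) and -0.36 for the average (adjusted p = 0.169), and without control replicate 2 it was -0.88, -1.01, -0.88 and -0.85, with adjusted p of at most 0.000733. The calls at 500 Hz and for the average were also lost without control replicate 1 (adjusted p = 0.0935 and 0.133). Calls were further lost without 500 Hz replicate 2 or 3 at 500 Hz, 2000 Hz replicate 1 or 3 at 2000 Hz and any 3000 Hz array at 3000 Hz, with adjusted p up to 0.128 and a change of -0.78 to -0.60.

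UGT84A3, the direct neighbour, fell at 500 Hz. It had 6.81, 7.16 and 7.38 there, against 8.84, 7.59 and 8.02 in silence, with no overlap. The change was -1.03 ± 0.26 (2.05-fold lower, adjusted p = 0.0268), and it was -0.69 without control replicate 1 (adjusted p = 0.122), the highest of the controls. The call was also lost without 500 Hz replicate 1 or 2, and the change without single arrays ran from -1.31 to -0.69. At 1000 Hz its 3 arrays (7.34, 7.05 and 7.50) also lay below all controls, at -0.85 ± 0.26 (adjusted p = 0.156). UGT84A3 arrays of 250 Hz (7.50, 7.82 and 8.02) and 2000 Hz (7.84, 7.51 and 8.09) overlapped those of silence. UGT84A1, the third of the row, was not called in any comparison, and its changes against silence ran between -0.35 ± 0.15 at 250 Hz and 0.14 ± 0.15 at 3000 Hz.

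UGT72E3 (AT5G26310), which with UGT72E2 glucosylates the monolignols sinapyl and coniferyl alcohol, rose at 500 and 3000 Hz, by small amounts. It had 5.30, 5.44 and 5.38 at 500 Hz and 5.35, 5.18 and 5.29 at 3000 Hz, against 5.02, 5.01 and 4.97 in silence. Here the controls were close together, and every array of both groups lay above them. UGT72E3 rose by 0.37 ± 0.08 at 500 Hz (1.3-fold, adjusted p = 0.0146) and by 0.27 ± 0.08 at 3000 Hz (1.21-fold, adjusted p = 0.0499). At 1000 Hz and 2000 Hz all arrays also lay above the controls, with differences of 0.18 ± 0.08 each that missed the threshold (adjusted p = 0.288 and 0.21). It was also higher at 500 Hz than at 250 Hz, where the arrays had 5.10, 4.96 and 5.15, by 0.30 ± 0.08 (adjusted p = 0.0472). UGT72E2 (AT5G66690), the other monolignol enzyme, had 6.48, 6.53 and 6.31 at 500 Hz against 6.14, 6.24 and 5.94 in silence, also without overlap, but its difference of 0.33 ± 0.10 missed the threshold (adjusted p = 0.0548). UGT72E1, which acts on the aldehydes of that pathway, was not called. The UGT72E3 call at 3000 Hz was lost without any 1 of the 6 arrays (adjusted p up to 0.166), that at 500 Hz without control replicate 1 or 500 Hz replicate 2 (adjusted p up to 0.0736), and that against 250 Hz without any array but 250 Hz replicate 3 (adjusted p up to 0.175).

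UGT71B1 (AT3G21750), of group E, showed the largest fall of any member. It had 6.97, 6.50 and 6.48 at 500 Hz, against 8.90, 7.26 and 8.25 in silence. The 3 arrays of 500 Hz were the lowest of all 18, and they also lay below the arrays of 250 Hz (7.37, 7.58 and 7.34) and of 1000 Hz (7.19, 7.40 and 7.41). The fall at 500 Hz was 1.49 ± 0.30 (2.8-fold lower, adjusted p = 0.0137). Without control replicate 1 the change was -1.11 (adjusted p = 0.0578), and without control replicate 2, whose 7.26 lay among the sound arrays, it was -1.93 (adjusted p = 8.69e-05). It was also lost without 500 Hz replicate 2 (adjusted p = 0.0664). At 2000 Hz (7.22, 7.83 and 7.26) and 3000 Hz (7.19, 7.17 and 7.80) the differences from silence were -0.70 ± 0.30 and -0.75 ± 0.30 (adjusted p = 0.215 and 0.147). The average of the frequencies was lower by 0.89 ± 0.24 (adjusted p = 0.0483), and that call was lost in 14 of 18 fits without 1 array, with a change of -0.51 without control replicate 1 (adjusted p = 0.309) and -1.33 without control replicate 2. For 500 Hz against 250 Hz the difference was -0.78 ± 0.30 (adjusted p = 0.149). UGT71B1 did not pass the test among the 5 frequencies (adjusted p = 0.207).

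The neighbour UGT71B6 (AT3G21780), which glucosylates abscisic acid, had its highest group mean at 500 Hz, where UGT71B1 had its lowest. Its signals there were 5.30, 6.04 and 5.69, against 4.47, 4.81 and 5.64 in silence, so the groups overlapped (difference 0.70 ± 0.26, adjusted p = 0.0972). UGT71B8, the third gene of that row, ran from 4.62 to 5.00 over all arrays and was not called. UGT71C5, another enzyme of abscisic acid glucosylation, ran from 8.21 to 8.79 and was not called either.

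UGT76E11 (AT3G46670), an enzyme with activity on flavonoids, fell at 500 Hz. It had 5.62, 5.40 and 5.10 there, against 7.51, 5.85 and 6.35 in silence, a change of -1.20 ± 0.30 (2.29-fold lower, adjusted p = 0.0271). The groups did not overlap, but the controls spanned more than the change itself, and without control replicate 1 it was -0.73 (adjusted p = 0.0997). The call was also lost without 500 Hz replicate 2 or 3. Signals at 1000 Hz, 5.48, 5.53 and 5.65, also lay below every control array (difference -1.02 ± 0.30, adjusted p = 0.151), whereas those of 2000 Hz were 6.47, 6.40 and 6.40.

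UGT76E12 (AT3G46660), separated from UGT76E11 by 1 gene, had a different profile. It had 3.73, 3.84 and 3.73 at 500 Hz, against 4.43, 5.08 and 4.63 at 250 Hz and 4.01, 3.69 and 3.54 in silence. It was lower at 500 Hz than at 250 Hz by 0.95 ± 0.23 (1.93-fold lower, adjusted p = 0.039), without overlap, and it differed among the 5 frequencies (adjusted p = 0.0323). Its mean signal over all arrays was 4.01, at the 12.2 percentile of all probe sets, so these differences are between low signals. The pair's call was lost without any array but 250 Hz replicate 3 (difference -1.09 to -0.76, adjusted p up to 0.15), and the call among frequencies in 9 of 15 fits without 1 array. Against silence the 250 Hz arrays were all higher, but the difference of 0.97 ± 0.23 missed the threshold (adjusted p = 0.0837). On the 9 arrays of 1000, 2000 and 3000 Hz the signal ran from 3.45 to 4.79, the highest on 2000 Hz replicate 3.

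**Figure D3:**
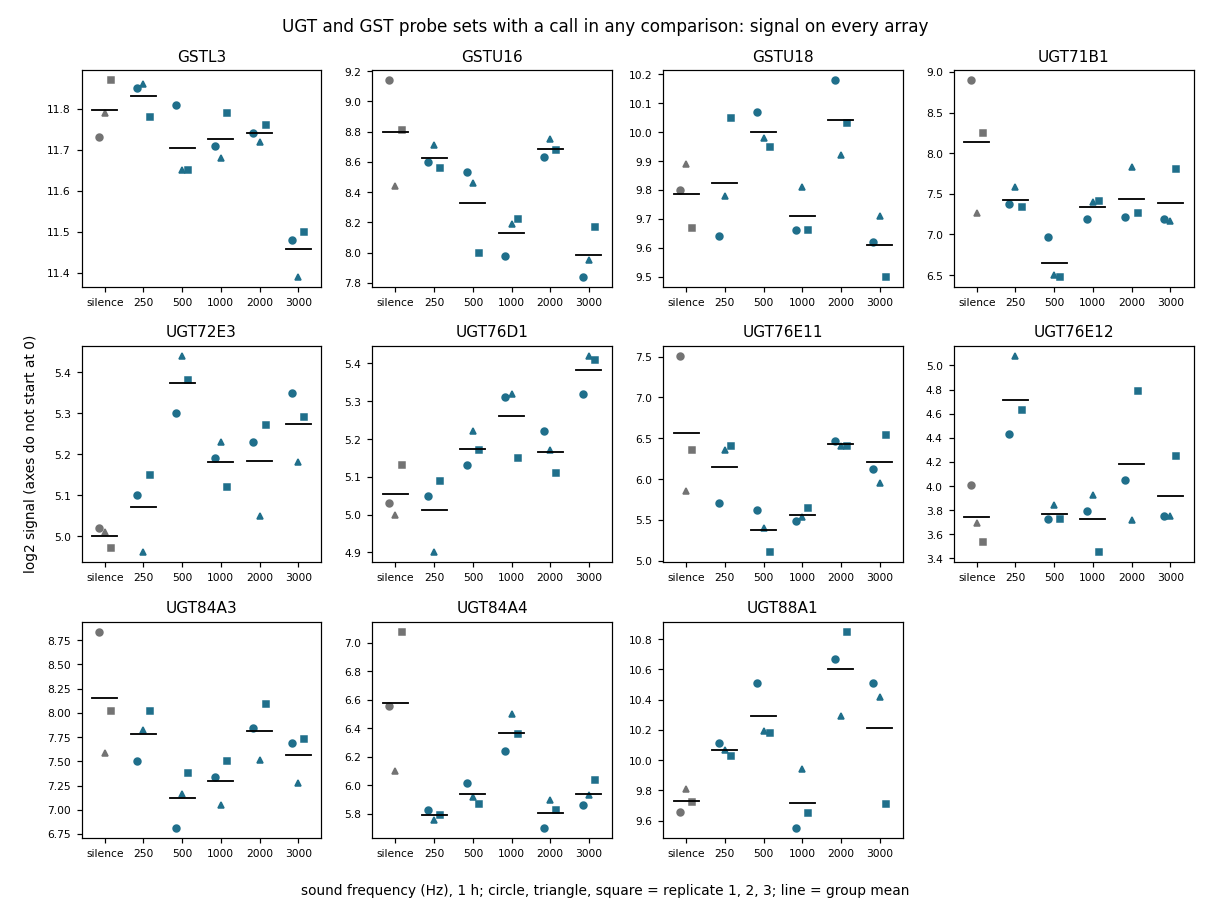
Log2 signal of the 11 probe sets called in any comparison, on each of the 18 arrays, by sound frequency in Hz with silence at the left (points, replicates by marker; lines, group means). For UGT71B1, UGT76E11 and UGT84A3 the arrays of 500 Hz lie below widely spread controls, whereas for GSTL3 and GSTU16 the 3 arrays of 3000 Hz lie below those of silence and of 2000 Hz.

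UGT88A1 (AT3G16520), of group E, rose at 2000 Hz. It had 10.67, 10.29 and 10.85 at 2000 Hz, against 9.66, 9.81 and 9.72 in silence, a rise of 0.87 ± 0.18 (1.83-fold, adjusted p = 0.024). The control arrays were close together and all 2000 Hz arrays lay above them. Arrays of 250 Hz (10.11, 10.07 and 10.03) and 500 Hz (10.51, 10.19 and 10.18) were also all above the controls, but the differences of 0.34 ± 0.18 and 0.56 ± 0.18 missed the threshold (adjusted p = 0.395 and 0.0659). At 1000 Hz the values were 9.55, 9.94 and 9.65, and at 3000 Hz 10.51, 10.42 and 9.71, so replicate 3 of 3000 Hz stood with silence. In the order of group means, 1000 Hz (9.71) and silence (9.73) came lowest, followed by 250 Hz (10.07), 3000 Hz (10.21), 500 Hz (10.29) and 2000 Hz (10.60). UGT88A1 differed among the 5 frequencies (adjusted p = 0.0319), and of the 4 pairs compared directly none passed, the nearest being 1000 Hz against 500 Hz at -0.58 ± 0.18 (adjusted p = 0.248). The call at 2000 Hz was lost without control replicate 1 or 3, 2000 Hz replicate 1 or 2000 Hz replicate 3 (adjusted p up to 0.11), while the change stayed between 0.75 and 1.03. The call among frequencies was lost in 7 of 15 fits without 1 array (adjusted p up to 0.0888).

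UGT76D1 (AT2G26480), which glucosylates dihydroxybenzoic acids derived from salicylic acid, was higher at 3000 Hz. It had 5.32, 5.42 and 5.41 at 3000 Hz, against 5.03, 5.00 and 5.13 in silence, a rise of 0.33 ± 0.08 (1.26-fold, adjusted p = 0.0211). The group means were 5.01 at 250 Hz, 5.17 at 500 Hz, 5.26 at 1000 Hz, 5.17 at 2000 Hz and 5.38 at 3000 Hz, and they differed (adjusted p = 0.0278). The call against silence was lost without control replicate 3 or any 3000 Hz array (adjusted p up to 0.0774), with a change of 0.30 to 0.37, and that among frequencies in 5 of 15 fits. Other hormone-linked UGTs did not pass. The cytokinin N-glucosyltransferase UGT76C2 came nearest, with 7.78, 7.60 and 7.91 at 2000 Hz against 7.17, 7.26 and 7.49 in silence (difference 0.46 ± 0.12, adjusted p = 0.0536), without overlap. Its neighbour UGT76C1, with the same activity, ran from 6.80 to 7.36. UGT84B1 and UGT74D1, which act on auxin, and UGT74F1, which acts on salicylic acid, were not called in any comparison.

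UGT76B1 (AT3G11340), which glucosylates isoleucic acid and salicylic acid and dampens immune responses, had the widest range of group means among the 5 frequencies and no call. It stood at 5.74, 4.11 and 5.99 at 250 Hz, at 4.51, 6.57 and 4.18 at 2000 Hz, and at 4.28, 3.81 and 4.41 in silence. On the 9 arrays of 500, 1000 and 3000 Hz it ran from 3.87 to 4.31. High values therefore came from 2 of 3 arrays at 250 Hz and 1 of 3 at 2000 Hz, and the differences from silence were 1.11 ± 0.50 and 0.92 ± 0.50 (adjusted p = 0.284 and 0.323).

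UGT78D1 (AT1G30530) and UGT78D2 (AT5G17050), the rhamnosyl- and glucosyltransferases that act on the 3-hydroxyl of flavonols, spread as widely in silence as anywhere. UGT78D1 had 8.38, 7.63 and 8.22 at 500 Hz and 9.33, 9.69 and 8.73 at 3000 Hz, against 10.27, 8.27 and 8.86 in silence. UGT78D2 had 8.67, 8.25 and 7.95 at 500 Hz and 8.76, 9.43 and 8.48 at 3000 Hz, against 10.18, 8.15 and 8.73 in silence. For both genes control replicate 1 was the highest of all 18 arrays, and 3000 Hz replicate 2 came second. The anthocyanin xylosyltransferase gene UF3GT (AT5G54060) is left out of the members by its symbol alone. It likewise had its highest signals on control replicate 1 (7.94) and 3000 Hz replicate 2 (7.78). The largest difference of UGT78D1 from silence, -1.06 ± 0.40 at 500 Hz, missed the threshold (adjusted p = 0.105), and it was -0.49 without control replicate 1 (adjusted p = 0.432) and -1.49 without control replicate 2 (adjusted p = 0.0146). UGT78D3, which adds arabinose to flavonols, ran from 4.31 to 4.59.

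UGT groups D, F, G and J and the sterol glucosyltransferase held no called member. In group D, UGT73B1 (AT4G34138) had 7.45, 7.57 and 8.50 at 250 Hz against 6.93, 7.24 and 6.51 in silence, all higher but not called (0.95 ± 0.26, adjusted p = 0.108). The UGT73B1 difference was 0.62 without 250 Hz replicate 3 (adjusted p = 0.265), and it passed without control replicate 2 (adjusted p = 0.021). The redox-responsive UGT73B5 had 5.39 to 6.87 over all arrays, highest on 500 Hz replicate 2. Group G here includes a row of 4 neighbours, UGT85A7, UGT85A2, UGT85A5 and UGT85A3. At 2000 Hz UGT85A2 had 9.11, 8.40 and 8.70, against 8.16, 9.35 and 9.24 in silence, and at 1000 Hz 9.56, 9.36 and 9.69 (difference from silence 0.62 ± 0.27, adjusted p = 0.281, or 0.24 without control replicate 1).

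UGT85A3 (AT1G22380) was the 1 member whose 15 sound arrays, at 5.31 to 6.48, all lay above its controls, at 5.07 to 5.27, as they did for 0.268% of all probe sets. Its largest difference was 0.61 ± 0.21 at 3000 Hz (adjusted p = 0.0871), where replicate 3 alone stood at 6.48. In group J, UGT87A2 (AT2G30140), known for a part in flowering time, ranged from 8.80 to 10.43 under sound, against 9.75, 8.96 and 11.01 in silence. Group L held the called UGT84A3 and UGT84A4. Its highest member UGT74B1 (AT1G24100), which adds the glucose of glucosinolates, was not called. UGT74B1 ranged from 8.57 to 9.38 on all arrays but control replicate 1, at 9.63. The sterol glucosyltransferase UGT80B1 differed most at 250 Hz, by 0.28 ± 0.15 (adjusted p = 0.364), or 0.18 without control replicate 1.

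**Figure D4:**
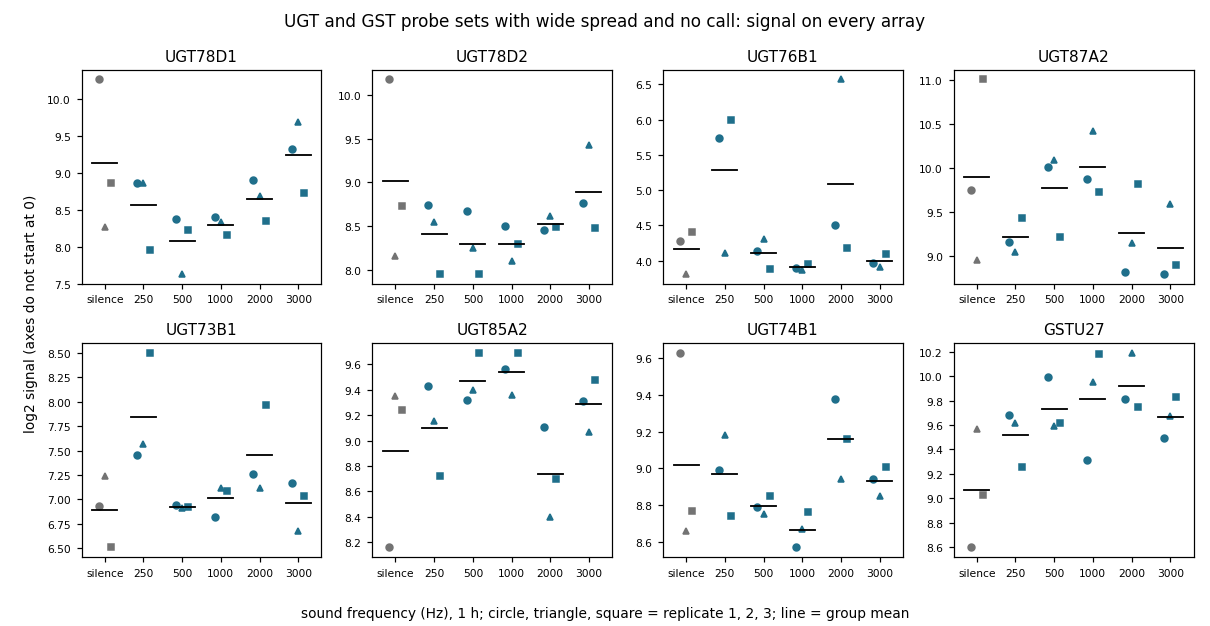
Log2 signal on each of the 18 arrays for 8 probe sets with wide spread and no call, by sound frequency in Hz with silence at the left (points, replicates by marker; lines, group means). Control replicate 1 stands highest for UGT78D1, UGT78D2 and UGT74B1 and lowest for UGT85A2 and GSTU27, and UGT76B1 is high on 2 arrays of 250 Hz and 1 of 2000 Hz.

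Among the glutathione transferases, calls against silence were 2 falls at 3000 Hz. These were 2 of 14 probe sets, or 14.3%, beside 6.6% of all probe sets (2.84% higher, 3.76% lower). GSTU16 (AT1G59700), of class tau, had 7.84, 7.95 and 8.17 at 3000 Hz, against 9.14, 8.44 and 8.81 in silence. All 3 sound arrays lay below all controls, and the fall was 0.81 ± 0.16 (1.75-fold lower, adjusted p = 0.0146). GSTL3 (AT5G02790), of class lambda, had 11.48, 11.39 and 11.50 at 3000 Hz, against 11.73, 11.79 and 11.87 in silence, a fall of 0.34 ± 0.07 (1.27-fold lower, adjusted p = 0.0153), again without overlap. GSTU16 was also low at 1000 Hz, where its arrays (7.98, 8.19 and 8.22) lay below every control, but that difference of -0.67 ± 0.16 missed the threshold (adjusted p = 0.129). Both calls were lost without control replicate 3, 3000 Hz replicate 1 or 3000 Hz replicate 2, with an adjusted p of at most 0.0624 for GSTU16 and 0.0759 for GSTL3.

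The difference of 3000 Hz from 2000 Hz stays within the arrays of higher spike signal, and its error comes from the fit of all 6 groups, controls included. In it 3 of 14 GST probe sets passed and all 3 were lower, or 21.4%, while limma called 0 of 47 UGT genes (4 had an unadjusted p under 0.05, or 8.51%, beside 16% of all probe sets). Of all probe sets 3.17% passed, 0.827% lower and 2.34% higher. GSTU16 had 7.84, 7.95 and 8.17 at 3000 Hz, against 8.63, 8.75 and 8.68 at 2000 Hz, a difference of -0.70 ± 0.16 (1.62-fold lower, adjusted p = 0.0313). GSTU18 (AT1G10360) had 9.62, 9.71 and 9.50 at 3000 Hz, against 10.18, 9.92 and 10.03 at 2000 Hz, a difference of -0.43 ± 0.11 (1.35-fold lower, adjusted p = 0.0412). GSTL3 had 11.48, 11.39 and 11.50 at 3000 Hz, against 11.74, 11.72 and 11.76 at 2000 Hz, a difference of -0.28 ± 0.07 (1.22-fold lower, adjusted p = 0.0378). For each of these genes the groups did not overlap. Fitted on these 6 arrays alone, GSTU16 passed (adjusted p = 0.0265), and GSTL3 and GSTU18 did not (adjusted p = 0.0956 and 0.067).

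Genes of other lists stood apart between the same groups. PYK10, the root gene, had 7.11, 7.11 and 6.98 at 3000 Hz, against 4.14, 5.41 and 4.94 at 2000 Hz (difference 2.24 ± 0.74, adjusted p = 0.119), without overlap. EXPA7, the other root marker with a probe set, differed by -0.01 ± 0.09, and the flower list had none. The anthocyanin genes DFR (1.82 ± 0.71, adjusted p = 0.205), UF3GT (0.91 ± 0.40, adjusted p = 0.276) and AT5MAT (0.63 ± 0.21, adjusted p = 0.118) were likewise higher on all 3000 Hz arrays than on any of 2000 Hz, without passing. The part of these differences in the GST values was not tested.

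In 6 of 14 GST probe sets (42.9%) all 3000 Hz arrays lay below all 2000 Hz arrays, as in 10.4% of all probe sets, and in 0 of 14 all lay above, beside 13.4%. Besides the 3 called they were GSTU23 (-0.44 ± 0.14, adjusted p = 0.101), GSTF4 (-0.34 ± 0.13, adjusted p = 0.205, or -0.19 without 2000 Hz replicate 1) and GSTU21 (-0.14 ± 0.09, adjusted p = 0.473). The median GST difference was -0.17, beside 0.03 for the UGT members and 0.00 for all probe sets. GSTU20 (AT1G78370), a tau-class gene linked to glucosinolate synthesis and to far-red light signalling, was at 12.27, 12.34 and 12.51 at 3000 Hz and at 12.64, 12.29 and 12.15 at 2000 Hz (difference 0.01 ± 0.17, adjusted p = 0.985). Leaving out single arrays left 0 or 1 of the 3 GST calls. The count was 0 without 2000 Hz replicate 1 or 3 or any 3000 Hz array, and 1 without 2000 Hz replicate 2, whereas the differences themselves stayed between -0.79 and -0.63 for GSTU16, -0.50 and -0.37 for GSTU18 and -0.31 and -0.25 for GSTL3.

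Across all 5 frequencies 6 of 61 members differed in the F test, or 9.84%, beside 15.6% of all probe sets. They were GSTL3 (adjusted p = 0.018), GSTU16 (adjusted p = 0.0246), GSTU18 (adjusted p = 0.0374), UGT76D1, UGT88A1 and UGT76E12. GSTU16 had group means of 8.62, 8.33, 8.13, 8.69 and 7.99 from 250 to 3000 Hz, and GSTU18 had 9.82, 10.00, 9.71, 10.04 and 9.61, so both were lowest at 3000 Hz, next lowest at 1000 Hz and highest at 2000 Hz. GSTL3 had 11.83, 11.70, 11.73, 11.74 and 11.46, lowest at 3000 Hz. The calls of GSTL3 and GSTU16 among frequencies were lost without 3000 Hz replicate 1 or 2 (adjusted p up to 0.0761), and that of GSTU18 in 11 of 15 fits without 1 array (adjusted p up to 0.0899). This F test draws its variance from all groups. Fitted on the 15 sound arrays without the controls, 17 members passed, the same 6 among them, beside 27.4% of all probe sets.

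Few members passed in the other direct pairs. At 500 Hz against 250 Hz 2 of 61 passed, UGT72E3 higher and UGT76E12 lower, or 3.28% beside 3.4% of all probe sets (1.21% higher, 2.19% lower). At 1000 Hz against 250 Hz and against 500 Hz limma called 0 members, beside 0.242% and 0% of all probe sets. An unadjusted p under 0.05 was reached by 12 members against 250 Hz (19.7%, beside 15.7% of all probe sets) and 6 against 500 Hz (9.84%, beside 12%).

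The remaining GST genes were not called in any comparison. GSTU27 (AT3G43800) came nearest against silence, for the average of the frequencies (difference 0.663 ± 0.185, adjusted p = 0.0568). At 2000 Hz it had 9.81, 10.19 and 9.75 against 8.60, 9.57 and 9.03 in silence (difference 0.85 ± 0.24, adjusted p = 0.0638). The GSTU27 group mean was above that of silence at every frequency. Between frequencies, GSTU21 was higher at 500 Hz than at 250 Hz by 0.333 ± 0.088, just short of the threshold (adjusted p = 0.0501). GSTU25 and GSTU26 (AT1G17180 and AT1G17190) stand side by side, the first known for detoxifying the explosive TNT. GSTU25 ran from 3.49 to 3.91 and GSTU26 from 4.75 to 6.02, highest on 250 Hz replicate 2. In the row of GSTU20, GSTU21, GSTU22 and GSTU23 the largest difference from silence was that of GSTU20 at 3000 Hz, 0.46 ± 0.17 (adjusted p = 0.117), with all arrays above the controls at 12.06, 12.16 and 11.53. That difference was 0.26 without control replicate 3. The phi-class genes GSTF4 and ATGSTF13 ran from 5.08 to 5.77 and from 3.74 to 4.15.

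Of the surrounding pathways, few genes had a probe set named here: 2 of 19 for glutathione synthesis, recycling and turnover, 3 of 21 for phenylpropanoid and flavonoid enzymes and regulators, and 0 of 15, 7 and 15 for vacuolar conjugate pumps, xenobiotic response and UDP-sugar supply. GR (AT3G54660), the glutathione reductase of chloroplasts and mitochondria, had 10.61, 10.44 and 10.40 at 2000 Hz, against 10.17, 10.10 and 9.86 in silence, a rise of 0.44 ± 0.09 (1.36-fold, adjusted p = 0.0247). It was also higher at 500 Hz (10.36, 10.34 and 10.23) than at 250 Hz (9.67, 9.85 and 9.88), by 0.51 ± 0.09 (adjusted p = 0.0169), and differed among the frequencies (adjusted p = 0.00524). Unlike the member calls, those of GR were not refitted without single arrays, and the 2000 Hz arrays are among those of higher spike signal. The cytosolic GR1 (AT3G24170) was not called, and neither were DFR, UF3GT and AT5MAT of anthocyanin synthesis, of which DFR spread most, from 5.23 to 8.82 over all arrays.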

How the data were processed

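RNA from whole rosettes was hybridised to Affymetrix ATH1 arrays, 18 samples in 6 groups of 3. The authors deposited a log2 signal for each probe set and array. Affymetrix Expression Console 1.1, RMA and MAS5 are named per the submitters' processing notes, without saying which made the values. Array medians were 6.51 to 6.63, and no further scaling was applied. After 64 control probe sets had been set aside, 22746 were tested, of which 13513 have 1 gene symbol, 503 several and 8730 none. All 61 members matched RefSeq (assembly TAIR10.1), used for loci and for neighbouring genes. No genome build is named, so no coordinates or sequences are given.

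A single linear model of the 6 groups was fitted in limma 3.58.1 under R 4.3.3 (lmFit, eBayes with an intensity trend), with Benjamini-Hochberg adjustment over all tested probe sets. Each frequency and their average were set against silence, 4 pairs of frequencies were compared, and an F test covered the 5 frequencies. Errors not marked SD are the model's standard errors. On simulated data for 500 Hz, 22746 probe sets, the fit recovered 12% of changes of 0.3, 42% of 0.5, 88% of 1 and 94% of 1.5 on the log2 scale. In the simulation every group had the same spread, and 50 probe sets were changed at each size. In the data silence had a mean variance of 0.103 over all probe sets, against 0.0275 to 0.0461 in the sound groups. The rates are therefore no measure of power for the comparisons with silence. The members, lists and tests were chosen with earlier results of these data known. Named were 4 marker genes, every called member, the widest member of each class without a call and the highest of each class with at least 3 members, 20 in all. Others are named after their values were seen. Same-numbered replicates were not treated as pairs in the main fit. The 45 pairs of same-numbered arrays had correlations of deviations between -0.32 and 0.35, with 12 over 0.1. Their median was -0.00, beside 0.03 for arrays of different groups and numbers. Whether some arrays shared a batch was not tested.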

Additional observations from a re-analysis of the deposited data

Results flagged for a closer look

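Changes of 5 members against silence differed between 2 frequencies, by limma's direct test of the pair. UGT76E12 was lower at 500 Hz than at 250 Hz by 0.947 (log2 difference -0.947) and UGT72E3 higher by 0.303. GSTU16, GSTU18 and GSTL3 were lower at 3000 Hz than at 2000 Hz, with log2 differences of -0.700, -0.433 and -0.283. At 500 Hz against 250 Hz 3.28% of the 61 members passed, beside 3.4% of all probe sets. For 3000 Hz against 2000 Hz the shares were 4.92% and 3.17%. Each of these calls was lost in 5 or 6 of the 6 fits without 1 array.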

How the results depend on the processing

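Calls rest on single arrays, of the controls as well as of the sound groups. Leaving out 1 array at a time gave 0 to 6 called members at 250 Hz, 0 to 12 at 500 Hz, 0 to 8 at 1000 Hz, 0 to 5 at 2000 Hz, 0 to 9 at 3000 Hz, 0 to 11 for the average, 1 to 8 among the frequencies, 0 to 4 for 500 Hz against 250 Hz and 0 to 1 for 3000 Hz against 2000 Hz. The highest counts against silence came without control replicate 2, and at 500 Hz the count was 0 without control replicate 1 or 500 Hz replicate 2. For 1000 Hz against 250 Hz and against 500 Hz it stayed at 0. With only the arrays of the groups compared, limma called 0 members at 500, 2000 and 3000 Hz, 17 among the frequencies, 2 for 1000 Hz against 250 Hz and 1 for 3000 Hz against 2000 Hz. Array weights gave 1 at 250 Hz, 1 for the average, 26 among the frequencies, 11 for 500 Hz against 250 Hz, 4 for 1000 Hz against 250 Hz and 6 for 3000 Hz against 2000 Hz. The 12 arrays of silence, 250, 500 and 1000 Hz gave 0 for the average, 1 among those frequencies and 1 for 500 Hz against 250 Hz. Centring on the median gave 1 for the average and 4 for 500 Hz against 250 Hz, and a mean signal of at least 5 gave 5 for the average. With the replicate number as a block, the average had 1 call and 500 Hz against 250 Hz had 1, and no other count moved by over 1.5 times. That 1 call for 500 Hz against 250 Hz was neither UGT72E3 nor UGT76E12, the calls of the main fit, which were both lost. Of the single-gene results that were recomputed, which are the member calls and 1 comparison for each other named member, 0 turned direction. Calls among the frequencies could not turn, because their value is the range of group means. Among other settings of normalization, filter or model, the UGT72E3 call at 3000 Hz held in 3 of 7. It was lost with quantile normalization, the replicate block, array weights and only the arrays compared. The GSTU18 call at 3000 Hz against 2000 Hz held in 4 of 7. Median centring, the replicate block and only the arrays compared ended it. The UGT71B1 call for the average held in 3 of 8, and the UGT72E3 call against 250 Hz in 4 of 8. Further changes of the named genes, and the calls of GR, were not recomputed. The cause of these shifts was not tested. The shares of all probe sets in these settings are not given beside the counts. The counts therefore do not show whether members shifted apart from other probe sets. Of the 61 members 24 have a mean signal under 5, where low signal limits what can be detected.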
